A study of Mus musculus with 9 samples.

Results

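Nuclei of mouse ventricles lacking the nuclear receptors ERRα and ERRγ were compared with control nuclei at postnatal days 9 to 10 (P10). The comparison used the 6 P10 libraries of a series of 9, chosen by their labelled genotype and stage, and 19631 of the 26639 barcodes used in the whole series. The 3 knockout libraries (KO) were labelled ERRalphaKO/ERRgammaKO and the 3 control libraries ERRalphaHet/ERRgammaWT. Both groups therefore carried at least 1 knocked-out ERRα allele, and the controls had wild-type ERRγ. All were of strain C57BL6/J, the tissue was ventricle, and sex was labelled as not determined. The labels name no Cre driver or deleted exon, and do not say how many hearts each library holds or that libraries came from separate animals. The p-values therefore measure the spread between libraries, which may be technical. Ventricles were taken between 10am and 12pm and used fresh or after freezing, and which library was handled in which way was not recorded. The other 3 libraries, controls at postnatal day 6 (P6), entered the fit only to share its estimate of the spread, and their levels are given beside some genes.

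ERRα and ERRγ bind DNA without a known natural ligand and, with coactivators of the PGC-1 family, switch on genes of fatty acid oxidation, the TCA cycle and the respiratory chain. In the heart they take over part of this program after birth, when the muscle turns from glucose and lactate to fatty acids as fuel. They also bind genes of contraction, calcium cycling and conduction. The question of the comparison was what differs in the young ventricle when both are missing.

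RNA was read by single-nucleus Drop-seq, in which a nucleus and a barcoded bead that captures poly(A) tails meet in a droplet and each molecule carries a unique molecular identifier (UMI). UMIs were summed over barcodes with at least 500 UMIs, so that the library is the replicate, and levels are CPM (counts divided by the library total and scaled to a common total) with TMM factors. The control libraries held 2077, 3875 and 3619 such barcodes with 2439168, 4837790 and 4132609 UMIs, and the KO libraries 3634, 3106 and 3320 barcodes with 5203348, 3407815 and 3474469 UMIs. KO libraries 1 and 2 shared 465 barcodes, against at most 12 for any other pair of libraries, and 464 of them were left out of KO library 2. Control library 1 and KO library 1 carried Xist, with 1774 and 5697 UMIs. The other 4 P10 libraries had at most 6 Xist UMIs and carried Y-linked RNA. The P6 libraries all carried Xist, with 4070, 7968 and 6643 UMIs. The part of this in comparisons with P6 levels was not tested. The first principal component of the P10 libraries, with 51.6% of the variance, separated the groups, and the second (26.2%) separated KO library 1 from KO library 2.

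The groups differed in more than single genes. Barcodes in which Malat1, an RNA kept in nuclei, made up under 2% of UMIs were 27.8%, 13.2% and 8.54% of control barcodes and 52.6%, 21.8% and 27.6% of KO barcodes. The exact permutation test of this difference gave p = 0.3, and 3 libraries against 3 cannot give less than 0.1. Barcodes rich in cardiomyocyte markers were 34.7%, 33.7% and 35.4% in controls and 18.4%, 24.9% and 24.0% in KO, without overlap (exact permutation p = 0.1). The class takes barcodes at or above their own library's share of these markers, so its threshold differed between libraries. Its size therefore does not count cardiomyocytes. That class leaves out barcodes low in Malat1 by its rule, and among the remaining barcodes the shares were 48.0%, 38.8% and 38.7% in controls and 38.9%, 31.8% and 33.1% in KO, with overlap (exact permutation p = 0.3). The share of UMIs in the 11 cardiomyocyte markers, which included Ttn and Myh6, was 4.75%, 3.67% and 4.65% in controls and 3.97%, 6.4% and 4.84% in KO (exact permutation p = 0.4), so muscle RNA was present in every library. Fibroblast markers held 0.814%, 0.800% and 0.550% in controls and 1.53%, 0.345% and 0.798% in KO, and endothelial markers 0.136% to 0.199% in all 6. In whole-library sums, fewer cells of a type and less RNA per cell cannot be told apart. A second fit therefore used only the cardiomyocyte-marker-rich barcodes, 720, 1306 and 1281 in the control and 670, 772 and 797 in the KO libraries. That class is a range and not a cell type. Barcodes within 10% of its threshold on either side, so partly outside the class, numbered 124, 194 and 268 in control and 219, 531 and 322 in KO libraries.

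The targeted genes were lower in KO. Esrra, which encodes ERRα (GRCm38 chr19:6910977-6921813, minus strand), stood at 74.9, 74.3 and 58.4 CPM in the controls and 4.74, 16.5 and 10.23 CPM in the KO libraries. The fall was −2.77 ± 0.34 on the log2 scale (SE), and the quasi-likelihood test of edgeR was adjusted by the Benjamini-Hochberg method (edgeR adjusted p = 0.000622). Esrrg, which encodes ERRγ (chr1:187608791-188214885, plus strand), stood at 886, 688 and 977 CPM in the controls and 356, 408 and 384 CPM in KO, a log2 of −1.15 ± 0.24 (edgeR adjusted p = 0.00929). Its log2 was −1.03 and its edgeR adjusted p 0.0654 without control library 3. The groups did not overlap for either gene, and the KO level of Esrrg was near the 264 to 403 CPM of the P6 controls. Of the 10 receptors and coactivators tested, the third call was Ncoa1, a steroid receptor coactivator (log2 −0.93), which was lost without control library 1 (−0.86) or 3 (−0.90) or KO library 3 (−0.82). The deleted part of each gene was not stated, so the remaining counts do not measure functional RNA.

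Of 15388 genes tested, 1007 were higher in KO (6.54%) and 679 lower (4.41%), together 1686 (11%) at an edgeR adjusted p under 0.05. These shares are the background for the counts of calls in each list below. In 4465 genes (29%) the 3 control and 3 KO values did not overlap. The median log2 over all genes was 0.03. Leaving out control library 3 left 218 higher and 147 lower, and leaving out KO library 3 left 482 and 275. Without control library 1, 644 were higher and 501 lower, and without KO library 2, 1426 and 728. Many calls that end without 1 library are named below, but counts of calls in a list can also drop where this is not stated. In the cardiomyocyte-marker-rich barcodes 631 of 10157 genes (6.21%) were higher and 630 (6.2%) lower, 12.4% together, and the groups did not overlap in 29.9%. Of the genes higher in whole libraries 490 were also called higher there (48.7% of the whole-library list, 77.7% of the cardiomyocyte list), and of the lower genes 392 (57.7% and 62.2%). None was called in opposite directions.

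**Figure D1:**
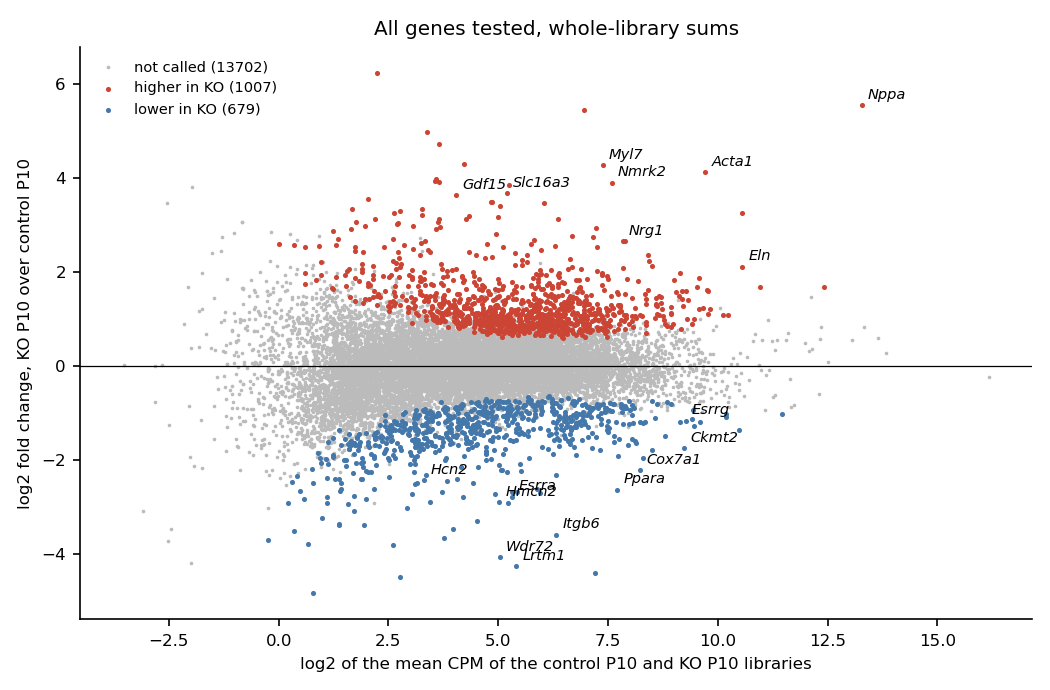
Each point is 1 of 15388 genes; the horizontal axis is the log2 of its mean CPM in the 6 P10 libraries and the vertical axis its log2 fold change, KO over control. Red points (1007) were higher and blue points (679) lower in KO at an adjusted p under 0.05, and Nppa stands apart at a high level and a log2 of 5.56.

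Lrtm1, Wdr72 and Itgb6 fell furthest among the genes named by rule. Lrtm1, a leucine-rich repeat membrane protein gene (chr14:29018208-29033645), stood at 60.4, 63.2 and 117 CPM in controls and 2.17, 4.92 and 6.07 CPM in KO (log2 −4.26 ± 0.51, edgeR adjusted p = 0.000572). Wdr72 fell from 66.1, 47.4 and 71.3 CPM to 2.37, 4.22 and 4.79 CPM (log2 −4.06). Itgb6, the β6 integrin subunit, fell from 138, 103 and 203 CPM to 15.8, 6.68 and 13.7 CPM (log2 −3.58). For these 3 genes every KO library lay below every P6 control library as well, whose lowest values were 14.1, 19.4 and 40.1 CPM. Further down the ranking stood Plekhh1 (−3.29), the dicarboxylate transporter gene Slc13a3 (−2.61) and the chromatin gene Cecr2 (−2.39). Lrtm1, Wdr72, Itgb6, Plekhh1, Slc13a3 and Cecr2 were called without any single library and in the cardiomyocyte-marker-rich barcodes.

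Ppara encodes PPARα, the lipid-sensing receptor that drives fatty acid oxidation (chr15:85734983-85802819), and stood at 455, 247 and 374 CPM in controls and 37.3, 66.1 and 71.9 CPM in KO. The log2 was −2.62 ± 0.36 (edgeR adjusted p = 0.0012), and −2.69 ± 0.37 in the cardiomyocyte-marker-rich barcodes. The P6 controls held 255, 124 and 112 CPM, so the KO libraries at P10 lay below the younger controls too. In fibroblast-marker-rich barcodes the gene stood at 83.8 unscaled CPM (without TMM factors) in controls and 12.1 in KO, against 650.3 and 109 in cardiomyocyte-marker-rich barcodes.

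In the list of fatty acid oxidation and lipid use, 5 of 30 genes tested fell and 0 rose, with a median log2 of −0.18. Slc27a1, a fatty acid transporter of the plasma membrane, stood at 64.8, 73.5 and 70.8 CPM in controls and 21.1, 31.6 and 24.6 CPM in KO (log2 −1.44 ± 0.22, edgeR adjusted p = 0.00182). Acads, the dehydrogenase of short-chain fatty acids, stood at 94.8, 89.9 and 52.9 CPM against 37.1, 25.0 and 31.6 CPM (log2 −1.33 ± 0.25). The groups did not overlap in either gene. Cpt1b, which admits long-chain fatty acids to mitochondria, was 171, 188 and 157 CPM in controls and 99.1, 94.2 and 91.7 CPM in KO (log2 −0.86 ± 0.19, edgeR adjusted p = 0.013). Its edgeR adjusted p was 0.0548 without control library 3 (log2 −0.91) and 0.0669 without KO library 3 (log2 −0.82). The remaining calls were Plin5, a protein of lipid droplets (log2 −1.03), and Hadhb, the β subunit of the trifunctional protein (log2 −0.78). Plin5 was not called without control library 1 (−0.93), 2 (−1.0) or 3 (−1.14) or KO library 3 (−0.96), and Hadhb without control library 1 (−0.56), 2 (−0.85) or 3 (−0.90) or KO library 2 (−0.75) or 3 (−0.68). Without control library 1 or 2, 3 of the 30 fell, and without control library 3 or KO library 3, 2 did.

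In the list of the TCA cycle and pyruvate dehydrogenase, 22 of 23 genes had a negative log2, with a median of −0.55, and 4 fell while 0 rose. Got2, the mitochondrial aspartate aminotransferase, stood at 199, 179 and 149 CPM in controls and 89.3, 87.9 and 80.9 CPM in KO (log2 −1.03 ± 0.20, edgeR adjusted p = 0.00713). Sucla2, a subunit of succinyl-CoA synthetase, stood at 290, 238 and 234 CPM against 135, 118 and 139 CPM (log2 −0.96 ± 0.20). Dlst and Dlat, the acyltransferase cores of the 2-oxoglutarate and pyruvate dehydrogenase complexes, fell by 0.96 and 0.79. All 4 had lower values in every KO library than in any control library. With control library 3 left out, 2 of the 23 fell, and Dlst (log2 −0.93) and Dlat (log2 −0.80) were not among them. Dlat was also lost without control library 2 (−0.73), KO library 1 (−0.72) or KO library 3 (−0.88). Outside the lists, Me3, the mitochondrial NADP-dependent malic enzyme, fell from 111, 115 and 170 CPM to 13.4, 34.8 and 32.6 CPM (log2 −2.31 ± 0.32). In the list of branched-chain and ketone enzymes 1 of 16 fell and 0 rose (median −0.33), near the 4.41% that fell over all genes tested. That gene was Bckdhb (log2 −0.76), a subunit of the branched-chain keto acid dehydrogenase, which was not called without control library 3 (−0.69), KO library 1 (−0.70) or KO library 3 (−0.84).

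Among the respiratory complexes, Cox7a1 moved furthest. It encodes the muscle isoform of a small subunit of cytochrome c oxidase (chr7:30184144-30186078) and stood at 451, 578 and 458 CPM in controls and 118, 67.9 and 136 CPM in KO. The log2 was −2.20 ± 0.28 (edgeR adjusted p = 0.000721), and −2.25 ± 0.29 in the cardiomyocyte-marker-rich barcodes. Its level was highest in the barcodes low in Malat1, with 1395 unscaled CPM in controls and 163 in KO, against 232 and 51.0 in cardiomyocyte-marker-rich, 227 and 65.4 in fibroblast-marker-rich and 279.8 and 44.8 in endothelial-marker-rich barcodes. The part that free RNA takes in this difference was not tested. Over all genes tested, 4.41% fell and 6.54% rose, and complex I, complex IV and the ATP synthase lay near these shares. In complex I, 2 of 29 fell and 0 rose (median −0.20), Ndufa1 (log2 −1.20) and Ndufs1 (−0.80). In complexes II and III and cytochrome c, 4 of 14 fell and 0 rose (median −0.35), among them cytochrome c itself, Cycs (log2 −0.98), and the flavoprotein subunit Sdha (−0.73). In complex IV, 1 of 16 fell and 1 rose (median −0.34), the latter Cox6a1 (log2 0.91), the form of subunit VIa found outside muscle. In the ATP synthase, 1 of 16 fell and 0 rose (median −0.15), Atp5l (log2 −1.0). Without control library 3 or KO library 3, Cox7a1 was the single gene called in these 4 lists. The complex I calls numbered 1 without control library 1 or KO library 2. Those of complexes II and III were 2 without control library 1 or KO library 1, 1 without KO library 2 and 0 without control library 2, and Cox6a1 and Atp5l were both lost without control library 3. Cox6a1 was also lost without control library 1 (0.85) or KO library 1 (0.88), and Atp5l without control library 2 (log2 −0.98). With control library 3 left out, values of log2 were −1.22 for Ndufa1, −0.87 for Ndufs1, −1.05 for Cycs, −0.80 for Sdha, 0.77 for Cox6a1 and −0.89 for Atp5l. Without KO library 3 they were −1.15, −0.86, −0.95, −0.84, 0.92 and −0.87.

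Mitochondrial regulators and genes of creatine and ATP exchange moved in both directions. Mfn1, which fuses outer membranes, stood at 161, 130 and 139 CPM in controls and 54.7, 50.6 and 38.0 CPM in KO (log2 −1.58 ± 0.20, edgeR adjusted p = 0.000772). Bnip3, a receptor for the removal of mitochondria that hypoxia induces, rose from 25.1, 31.7 and 23.2 CPM to 62.8, 140 and 77.7 CPM (log2 1.80 ± 0.30). With these, 2 of 24 mitochondrial regulators rose and 3 fell (median −0.25), the others being Fis1 (log2 0.68), Ppara and Pink1 (−0.84). Over all genes tested 6.54% rose and 4.41% fell. Without any single library other than KO library 2, 1 of the 24 rose, which was Bnip3, and without control library 3 the log2 of Fis1 was 0.65. Pink1, a kinase that marks damaged mitochondria, was not called without control library 1 (−0.68) or 3 (−0.89) or KO library 2 (−0.74) or 3 (−0.84), or with barcodes low in Malat1 left out. In the list of creatine and ATP exchange, Ckmt2, the creatine kinase of the muscle mitochondrion (chr13:91853387-91876885), stood at 727, 1112 and 952 CPM against 181, 267 and 386 CPM (log2 −1.74 ± 0.30, edgeR adjusted p = 0.00354). Ak1, the cytosolic adenylate kinase, fell from 142, 172 and 158 CPM to 50.8, 65.4 and 93.0 CPM (log2 −1.18 ± 0.23). Slc6a8, the creatine importer, instead rose from 31.3, 51.4 and 36.5 CPM to 92.0, 96.0 and 91.7 CPM (log2 1.22 ± 0.22). The list thus had 2 of 12 genes up and 2 down (median 0.25), the second rise being Ak4 (log2 1.06), which was lost without control library 1 (1.00) or 3 (1.02) or KO library 1 (1.02). With barcodes low in Malat1 left out, the log2 of Ak1 was −1.01 (edgeR adjusted p = 0.0674).

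Genes of glycolysis and lactate were higher. In that list 7 of 27 rose and 1 fell, and the median was 0.66. Slc16a3, the lactate exporter MCT4, stood at 2.64, 8.43 and 3.78 CPM in controls and 76.6, 79.1 and 49.5 CPM in KO (log2 3.68 ± 0.37, edgeR adjusted p = 0.000161). Pgam2, the muscle phosphoglycerate mutase, stood at 280, 380 and 207 CPM against 627, 678 and 1161 CPM (log2 1.51 ± 0.30). Ldha, the lactate dehydrogenase subunit that predominates outside the adult heart, stood at 183, 297 and 199 CPM against 518, 565 and 581 CPM (log2 1.29 ± 0.27). Eno3, the muscle enolase, rose by 1.29. The gene that fell was Gys1, the muscle glycogen synthase (log2 −1.02), which was lost without control library 2 (−0.93) or 3 (−1.06) or KO library 1 (−0.84) or 3 (−0.86). Without control library 3, 2 of the 27 genes rose, and Pgam2 (log2 1.32, edgeR adjusted p = 0.0613), Ldha (1.21, 0.0666) and Eno3 (1.20, 0.0737) were not called. The rises numbered 5 without control library 1 and 6 without KO library 3.

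**Figure D2:**
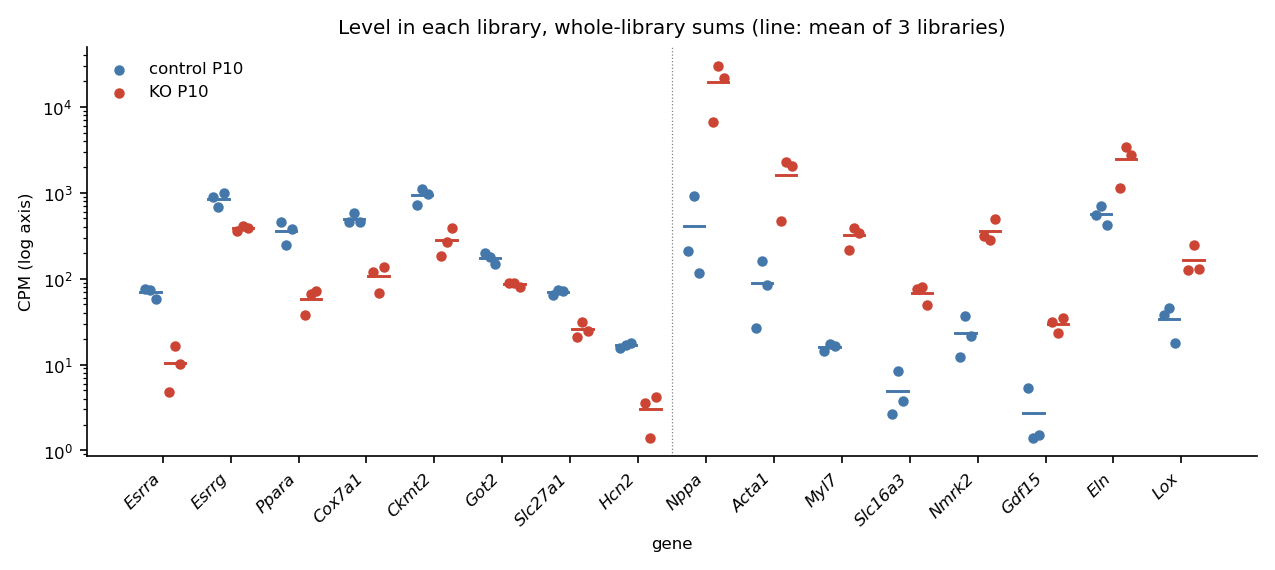
CPM (log axis) of 16 genes in each of the 3 control (blue) and 3 KO (red) P10 libraries, with lines at the group means. The 8 genes left of the dotted line were lower in KO and the 8 right of it higher. All 16 were picked from called genes, many by a rule that required groups without overlap. The absence of overlap in all 16 is therefore no separate result, and over all genes tested 29% did not overlap.

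Potassium, sodium and pacemaker channels formed a list with 9 of 24 genes down and 1 up, and a median of −0.61. Hcn2, a pacemaker channel opened by hyperpolarization (chr10:79716634-79736108), stood at 15.4, 17.1 and 17.9 CPM against 3.55, 1.41 and 4.16 CPM (log2 −2.42 ± 0.40). It was lower in every KO library than in any P10 control. Kcnj3, a subunit of the acetylcholine-gated potassium channel, stood at 58.6, 32.1 and 92.7 CPM against 21.1, 9.85 and 6.39 CPM (log2 −2.24 ± 0.43). Kcnq1, the channel of the slow repolarizing current, fell by 1.05 (edgeR adjusted p = 0.0125), but not without control library 3 (log2 −1.0) or KO library 3 (−0.92). The gene that rose was Fgf12 (log2 1.33), an intracellular partner of sodium channels, which was lost without control library 2 (1.08). Without control library 3 or KO library 3, 4 of the 24 fell. In the cardiomyocyte-marker-rich barcodes 9 of 20 fell and 2 rose, with a median of −0.74.

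Genes of adrenergic and cAMP signalling moved in both directions, with 4 of 19 down and 2 up (median −0.19). Without control library 1 or 3 or KO library 1, 3 of the 19 fell. Adra1b, the α1B adrenergic receptor, stood at 141, 89.3 and 126 CPM in controls and 46.8, 28.1 and 21.1 CPM in KO (log2 −1.87 ± 0.28, edgeR adjusted p = 0.00182). Rgs6 and Rgs7, which end signals of inhibitory G proteins, fell by 1.95 and 2.68, Rgs7 from 122, 65.8 and 134 CPM to 22.5, 5.63 and 20.8 CPM. Prkar1a, a regulatory subunit of protein kinase A, rose from 353, 304 and 205 CPM to 957, 665 and 1012 CPM (log2 1.61 ± 0.26). Gnas, which encodes the stimulatory G protein α subunit, rose from 798, 1039 and 985 CPM to 1878, 3437 and 3718 CPM (log2 1.68 ± 0.30). The groups did not overlap in any of these 5 genes, and each was also called in the cardiomyocyte-marker-rich barcodes.

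ERR receptors bind the sequence TNAAGGTCA, and promoter windows of RefSeq (GRCm38.p6, 250 bases before to 50 after each start) were searched for it on both strands. A window was found for 474 of the 679 lower genes and 730 of the 1007 higher genes. The motif stood in 7 of 676 windows of lower genes (1.04%), 13 of 895 of higher genes (1.45%), 83 of 12003 of genes not called (0.691%) and 421 of all 32851 windows (1.28%). It stood in 0 of 27 windows of lower genes in the 9 energy lists, which says only that these letters are not in those windows. The shorter core AAGGTCA, which the motif contains, stood in 4.14%, 3.24% and 3.13% of windows of lower, higher and uncalled genes and in 4.72% of all windows. These shares are a description, with no test. Higher genes held the letters too, among them Igf1r (log2 0.86) with the motif and Eno1 (1.71) and Grin2c (3.5) with the core. Windows of 3 lower genes show where the letters fall. Hcn2 at chr10:79716384-79716683 and Myh7b, a myosin heavy chain gene, at chr2:155610993-155611292, both on the plus strand, hold the motif on the reverse strand, 168 and 46 bases before the start. Ak1 at chr2:32628140-32628439, plus strand, holds the core alone, 90 bases before the start. This start lies inside the gene's span of chr2:32621758-32635058. Capitals mark the match, and sequences run 5′ to 3′ on the gene's strand.
Hcn2: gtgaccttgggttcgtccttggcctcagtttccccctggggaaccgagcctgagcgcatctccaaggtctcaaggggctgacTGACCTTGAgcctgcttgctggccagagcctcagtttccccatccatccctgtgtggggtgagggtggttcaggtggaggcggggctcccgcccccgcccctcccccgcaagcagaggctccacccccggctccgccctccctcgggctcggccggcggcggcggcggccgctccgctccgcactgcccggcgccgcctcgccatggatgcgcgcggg
Myh7b: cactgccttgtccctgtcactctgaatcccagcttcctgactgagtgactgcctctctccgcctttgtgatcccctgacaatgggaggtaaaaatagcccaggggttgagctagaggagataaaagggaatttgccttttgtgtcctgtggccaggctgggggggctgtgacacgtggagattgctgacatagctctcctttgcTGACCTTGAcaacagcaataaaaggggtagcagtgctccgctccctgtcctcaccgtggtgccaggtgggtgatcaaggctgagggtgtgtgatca
Ak1: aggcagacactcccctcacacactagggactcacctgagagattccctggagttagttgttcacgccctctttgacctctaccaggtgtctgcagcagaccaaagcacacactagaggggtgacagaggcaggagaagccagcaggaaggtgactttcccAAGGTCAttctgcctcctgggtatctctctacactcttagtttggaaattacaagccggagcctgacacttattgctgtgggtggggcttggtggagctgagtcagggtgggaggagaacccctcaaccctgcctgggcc

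In the list of fetal, atrial and stress genes of the heart 11 of 22 rose and 2 fell, with a median of 1.44 beside 0.03 over all genes. Nppa, which encodes atrial natriuretic peptide (chr4:148000722-148002079), stood at 212, 905 and 116 CPM in controls and 6642, 30036 and 21582 CPM in KO (log2 5.56 ± 0.89, edgeR adjusted p = 0.00273). The lowest KO library was above the highest control, and the P6 controls held 245 to 1263 CPM. Nppb, its brain-type relative, stood at 123, 445 and 272 CPM against 883, 4215 and 3001 CPM (log2 3.27 ± 0.69, edgeR adjusted p = 0.00975), and without control library 3 the log2 was 3.25 and the adjusted p 0.0617.

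Contractile genes of the atrium, of smooth muscle and of skeletal muscle rose alongside. Myl7, the atrial regulatory light chain (chr11:5896637-5898782), stood at 14.5, 17.5 and 16.4 CPM in controls and 217, 392 and 343 CPM in KO (log2 4.29 ± 0.34, edgeR adjusted p = 6.16e-05). Myl4, the atrial essential light chain, rose from 22.9, 30.5 and 32.0 CPM to 111, 153 and 93.3 CPM (log2 2.05 ± 0.26). Acta1, skeletal muscle α-actin (chr8:123891769-123894751), rose from 26.9, 159 and 83.9 CPM to 474, 2249 and 2057 CPM (log2 4.13 ± 0.68). The tropomyosin gene Tpm2 rose by 2.08 and the smooth muscle gene Tagln by 2.06. Bmp10, a growth factor of atrial muscle, had 0, 1 and 0 UMIs in the control and 39, 18 and 44 UMIs in the KO libraries. The summed atrial cardiomyocyte markers were 0.0293%, 0.103% and 0.0255% of control UMIs and 0.683%, 2.55% and 1.98% of KO UMIs, and 4 of 7 rose while 1, Kcnj3, fell. Their part in the results was not tested. The 2 genes of the fetal list that fell were Myh7b (log2 −1.28; 186, 270 and 296 against 103, 79.5 and 128 CPM) and Tnnt1, slow skeletal troponin T (−0.76). Myh7b was lost without control library 3 (−1.14), and Tnnt1 without control library 1 (−0.79), 2 (−0.77) or 3 (−0.70) or KO library 2 (−0.62) or 3 (−0.69). Myh6, the main ventricular myosin heavy chain, differed by 0.61 ± 0.34 (edgeR adjusted p = 0.264).

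These abundant transcripts were found in every barcode class. Nppa stood at 9845 unscaled CPM in cardiomyocyte-marker-rich KO barcodes, 9333 in fibroblast-marker-rich, 8600 in endothelial-marker-rich and 33890 in low-Malat1 barcodes. The control means were 202, 166, 211 and 1068. Acta1 stood at 878, 895, 779 and 2629 unscaled CPM in the same KO classes and Myl7 at 191, 159, 142 and 499. All 3 genes stood highest in the barcodes low in Malat1, and these levels do not show which cells made the RNA. With barcodes low in Malat1 left out, 10 of 22 fetal genes rose and 2 fell (median 1.25), and in the cardiomyocyte-marker-rich barcodes 11 of 20 rose and 2 fell (median 1.22).

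**Figure D3:**
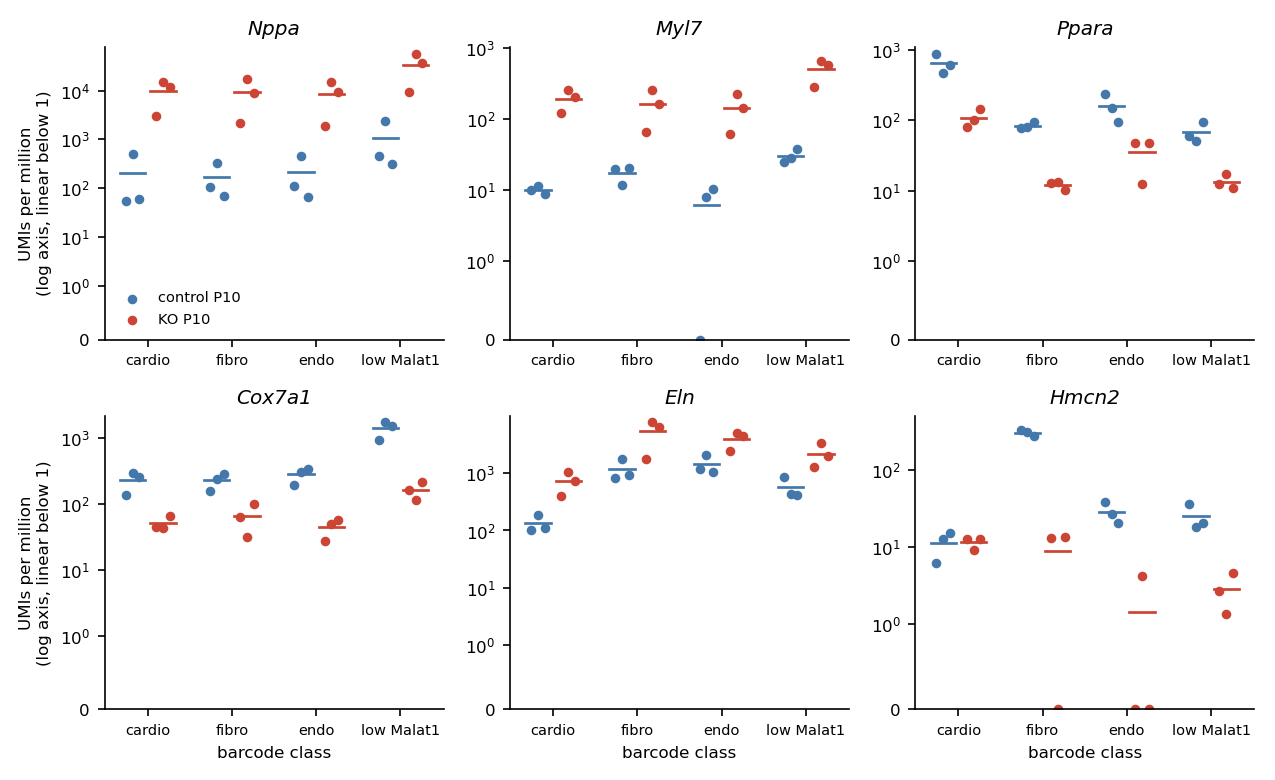
Unscaled CPM of 6 genes in each control (blue) and KO (red) library within 4 barcode classes, namely barcodes rich in cardiomyocyte, fibroblast or endothelial markers and barcodes low in Malat1 (log axis, linear below 1; lines are means). Nppa, Myl7 and Cox7a1 differ by group in every class, whereas Hmcn2 is at 300.0 unscaled CPM in control and 8.77 in KO fibroblast-marker-rich barcodes and near 11 in both groups of cardiomyocyte-marker-rich barcodes. The KO level of Hmcn2 in fibroblast-marker-rich barcodes rests on few UMIs.

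In the list of the integrated stress response and of serine and one-carbon genes, 9 of 17 rose and 0 fell (median 1.06). Gdf15, a hormone released by stressed cells (chr8:70629393-70632456), stood at 5.29, 1.4 and 1.51 CPM in controls and 31.2, 23.6 and 35.2 CPM in KO (log2 3.64 ± 0.51, edgeR adjusted p = 0.0013). Asns, asparagine synthetase, rose from 2.64, 1.81 and 1.26 CPM to 6.52, 16.5 and 21.4 CPM (log2 2.98 ± 0.50), on 5 to 9 UMIs in each control library. Psat1, an enzyme of serine synthesis, rose by 2.02, from 4.28 to 6.42 CPM to between 13.7 and 28.1 CPM. Without control library 3, 3 of the 17 rose, and without KO library 3, 4 did. Gdf15, Asns and Psat1 were called without any single library.

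The list of NAD salvage and metallothioneins had 3 of 12 genes up and 1 down (median 0.06). Nmrk2, the muscle kinase that makes NAD from nicotinamide riboside (chr10:81198170-81202051), stood at 12.3, 36.5 and 21.4 CPM in P10 controls and 314, 278 and 488 CPM in KO (log2 3.91 ± 0.75, edgeR adjusted p = 0.00634). The P6 controls held 13.1, 299 and 242 CPM, of which 1 lay within the range of the KO libraries and the others below it. The metallothioneins Mt1 and Mt2, which bind zinc, rose by 2.25 and 3.47, Mt1 from 91.2, 181 and 84.1 CPM to 310, 845 and 546 CPM. These 3 rises passed without any single library. The gene that fell, Nmnat3, of mitochondrial NAD synthesis, had overlapping groups and was lost without control library 1 (log2 −0.94) or 3 (−0.86) or KO library 1 (−0.76) or 3 (−0.92).

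In the hypoxia response list 6 of 19 rose and 0 fell (median 0.58), Hif1a among them (log2 1.09). Bnip3, Ldha and Pgk1 were among these rises and also among those of the mitochondrial or glycolysis lists above. P4ha1 (log2 0.69) was lost whenever any 1 library was left out. Without control library 1, 3 of the 19 rose, and without control library 3, 2 did, when Hif1a had a log2 of 1.10 and an edgeR adjusted p of 0.0626. Of immediate early and heat shock genes 2 of 16 rose and 0 fell. Hspb1, the small heat shock protein of muscle, stood at 17.6, 30.7 and 18.9 CPM against 134, 138 and 131 CPM (log2 2.56 ± 0.35), with P6 controls at 34.9, 105 and 90.8 CPM. The other rise, of the inducible chaperone gene Hspa1a (log2 1.72), was lost without control library 1 (1.79), 2 (1.96) or 3 (1.47) or KO library 1 (1.08) or 3 (1.89). The cytoskeletal gene Krt18 rose from 4.85, 6.62 and 2.77 CPM to 42.9, 90.4 and 78.3 CPM (log2 3.86 ± 0.37, edgeR adjusted p = 0.000126).

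Genes of the extracellular matrix rose in 8 of 32 cases and fell in 0, with a median of 0.55. Eln, elastin (chr5:134702593-134747323), stood at 555, 705 and 425 CPM in controls and 1139, 3437 and 2771 CPM in KO (log2 2.12 ± 0.37, edgeR adjusted p = 0.00381). Lox, which cross-links elastin and collagen, stood at 37.9, 45.8 and 17.6 CPM against 127, 243 and 128 CPM (log2 2.29 ± 0.37). Mgp, matrix Gla protein, rose from 351, 333 and 237 CPM to 792, 1089 and 924 CPM (log2 1.61 ± 0.26). In fibroblast-marker-rich barcodes, where the groups overlapped for Eln and not for the others, Eln rose by 2.24, Lox by 1.94 and Mgp by 1.54 (edgeR adjusted p = 0.00386, 0.00551 and 0.00327). Of the fibroblast markers themselves 0 of 11 passed in whole libraries (edgeR; 1 had an unadjusted p under 0.05, and DESeq2 called 1). Without control library 2 or KO library 1, 1 of them rose, and without KO library 2, 2 did. Smooth muscle markers held 0.0862%, 0.109% and 0.0763% of control UMIs and 0.196%, 0.125% and 0.253% of KO UMIs, without overlap (exact permutation p = 0.1), and 3 of 6 rose while 0 fell. Their part in the matrix results was not tested. The number of matrix genes that rose was 5 without control library 1, 3 without control library 3 and 13 without KO library 2, the library lowest in fibroblast markers.

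Hmcn2 and Cmah fell steeply and stood highest in fibroblast-marker-rich barcodes. Hmcn2, which encodes the matrix protein hemicentin-2, stood at 55.5, 58.2 and 57.4 CPM in whole control libraries and 7.31, 5.27 and 10.5 CPM in KO (log2 −2.88 ± 0.28, edgeR adjusted p = 0.000126). In fibroblast-marker-rich barcodes it was at 323, 308 and 269 unscaled CPM in controls and 12.9, 0 and 13.5 in KO (log2 −5.06 ± 0.47, edgeR adjusted p = 7.65e-07). In cardiomyocyte-marker-rich barcodes the means were 11.2 and 11.3 unscaled CPM (log2 −0.13 ± 0.41, edgeR adjusted p = 0.871). Cmah, an enzyme of sialic acid synthesis, fell by 2.47 in whole libraries and by 3.30 in fibroblast-marker-rich barcodes, where it stood at 139 unscaled CPM in controls and 13.2 in KO. The signalling protein gene Wisp2 rose from 0, 7 and 3 UMIs to 21, 149 and 53 UMIs and was highest in fibroblast-marker-rich barcodes, at 99.6 unscaled CPM in KO. Fibroblast-marker-rich barcodes numbered 135, 630 and 444 in the control and 98, 284 and 418 in the KO libraries. Their KO sums held 77798, 225960 and 297031 UMIs, so the KO levels of Hmcn2 and Cmah there rest on few UMIs. The cut for this class also followed each library's own share of the markers. Fibroblast markers held 2.43%, 3.26% and 2.03% of its UMIs in controls and 3.89%, 1.38% and 2.87% in KO. The part of this in the falls was not tested.

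In the list of angiogenesis and vessel signalling 1 of 22 genes rose and 1 fell (median −0.34), near the 6.54% and 4.41% over all genes. They were Edn1, which encodes endothelin-1 (log2 1.95), and the semaphorin and VEGF co-receptor gene Nrp2, and without control library 3 no gene of this list was called. The fall was also absent without control library 1 or KO library 2 or 3, and 2 genes fell without KO library 1. Nrg1, from the growth factor list, encodes the ligand neuregulin-1. It stood at 70.1, 59.0 and 56.9 CPM in controls and 142, 715 and 327 CPM in KO (log2 2.67 ± 0.47, edgeR adjusted p = 0.00426), and in endothelial-marker-rich barcodes it rose by 3.26 ± 0.51. The gene is also an endocardial marker. The summed endocardial markers were 0.0447%, 0.0381% and 0.0322% of control UMIs and 0.0556%, 0.127% and 0.0701% of KO UMIs (exact permutation p = 0.1). Their part in the rise of Nrg1 was not tested. Its receptor gene Erbb4 was lower (log2 −1.19, edgeR adjusted p = 0.0315), with control values of 1350, 714 and 1152 CPM against 491, 496 and 420 CPM. That call ended without control library 1 (−0.98) or 3 (−1.13) or KO library 3 (−1.10). In the growth factor list 4 of 27 rose, among them Tgfb3 (log2 1.58) and the secreted binding protein Igfbp7 (1.21), and 1 fell, the median being 0.10. Without KO library 2, 3 fell, and without control library 1 or 3 or KO library 3, 0 did. The rises of this list numbered 3 without control library 2 or 3 or KO library 2 or 3. Of endothelial markers 0 of 10 passed by edgeR, with 1 at an unadjusted p under 0.05 and 0 called by DESeq2, and 1 rose without KO library 1.

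Other lists held few calls, to be read beside the 6.54% higher and 4.41% lower over all genes tested. Of 22 genes of the mature sarcomere and Z-disc 2 rose, Csrp3 (log2 1.61), a stretch-responsive Z-disc protein, and Des (1.12), and 0 fell. Of 22 calcium handling genes 4 rose and 0 fell (median −0.09). In the cardiomyocyte-marker-rich barcodes 2 of 21 rose and 2 fell (median −0.26). With barcodes low in Malat1 left out, 1 of 22 rose and 1 fell. Ryr3, a calcium release channel that is scarce in ventricle, led the whole-library rises. It stood at 12.8, 20.7 and 15.6 CPM in controls and 36.1, 285 and 119 CPM in KO (log2 3.13 ± 0.53, edgeR adjusted p = 0.00354). Among 30 cardiac transcription factors 2 rose and 1 fell, the last being the homeodomain gene Hopx, at 201, 103 and 148 CPM against 75.8, 33.1 and 39.0 CPM (log2 −1.59 ± 0.32). With control library 3 left out, Ryr3 was the single calcium gene up, no sarcomere gene was called (Csrp3 1.55, Des 1.08) and Hopx alone was called among the factors. The calcium genes up also numbered 1 without control library 1 or KO library 3, and the sarcomere genes up 1 without control library 1, KO library 2 or KO library 3. The factors up were 0 without control library 2 or KO library 3 and 1 without control library 1 or KO library 1, and the factors down were 2 without control library 2 or KO library 2. Of 37 cell cycle genes 0 passed by edgeR in either direction, 1 had an unadjusted p under 0.05 and DESeq2 called 0. Without KO library 2, 4 of the 37 rose, and the list median moved from −0.06 to 0.37.

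**Figure D4:**
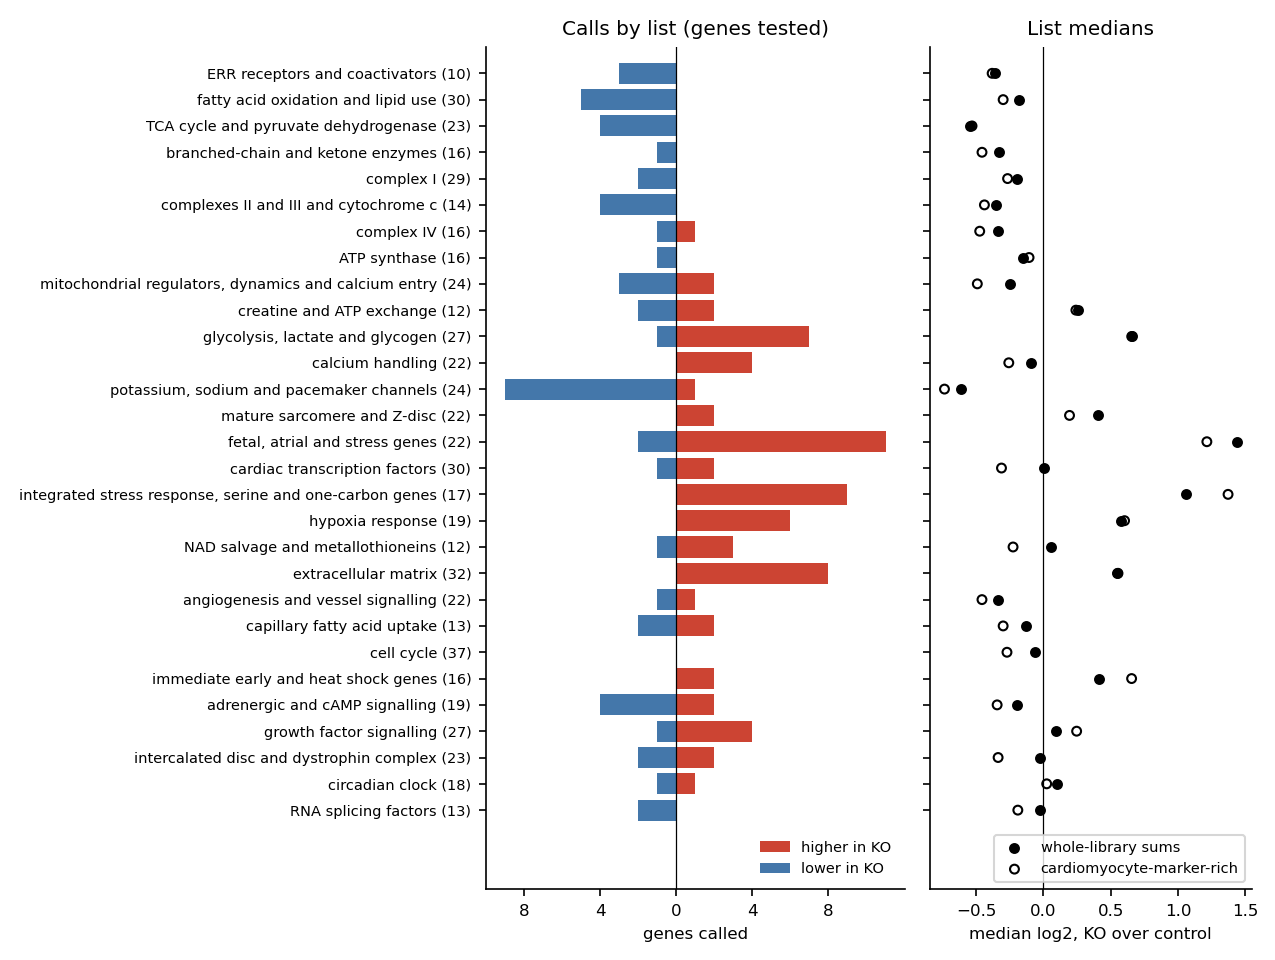
Left, the number of genes called higher (red) or lower (blue) in KO in each of 29 lists, with the genes tested in parentheses; right, the median log2 fold change of each list in whole libraries (filled) and in cardiomyocyte-marker-rich barcodes (open). Channels have the most falls (9 of 24) and fetal, atrial and stress genes the most rises (11 of 22).

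RNA of ribosomal proteins and hemoglobin was also higher in the KO libraries. Ribosomal protein genes held 0.610%, 0.894% and 0.576% of control UMIs and 1.94%, 1.04% and 1.54% of KO UMIs, without overlap (exact permutation p = 0.1). By gene, 45 of 83 rose and 0 fell (median 1.12), which became 18 without control library 3 and 28 without KO library 1. With barcodes low in Malat1 left out, 31 of 81 rose and 1 fell (median 0.87). Rps4x, a small subunit protein, stood at 15.4, 19.3 and 10.3 CPM against 106, 70.7 and 115 CPM (log2 2.69 ± 0.27). In the cardiomyocyte-marker-rich barcodes the ribosomal share was 0.199%, 0.460% and 0.332% in controls and 0.970%, 0.610% and 0.947% in KO. Hemoglobin genes, which mark red cells, held 0.420%, 0.421% and 0.228% of control UMIs and 0.931%, 1.64% and 0.509% of KO UMIs. Of 7 erythroid markers 4 rose, all of them hemoglobin genes, and 0 fell. The rises became 0 without control library 3 and 3 without control library 1 or 2 or KO library 2. Reads of ribosomal protein pseudogenes and of the near-identical hemoglobin copies cannot be assigned with certainty. Mitochondrially encoded RNA, left out of all sums, was 28.4%, 8.14% and 16.2% of UMIs in controls and 6.34%, 15.3% and 7.78% in KO, with overlap (exact permutation p = 0.2). The part of these differences between libraries in the gene results was not tested.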

How the data were processed

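Single-nucleus Drop-seq libraries of mouse ventricle were deposited as tables of UMI counts per gene and barcode, which the authors made from exonic and intronic reads, per the labels' protocols. STAR 2.5.2a and build mm10 are named in the submitters' processing notes, and whether counting used strand is not given in the sources used here. Counts of overlapping or antisense genes and of near-identical copies are therefore uncertain. UMIs outside mitochondrial genes were summed over barcodes with at least 500, leaving out of KO library 2 the barcodes also listed in KO library 1. All 9 libraries were fitted with edgeR 4.0.16 (quasi-likelihood test, TMM factors, filterByExpr by group; R 4.3.3), and genes were called at a Benjamini-Hochberg adjusted p under 0.05. CPM use TMM library sizes, log2 values are KO minus control with their standard errors, and unscaled CPM within barcode classes use plain UMI totals. A barcode was rich in cardiomyocyte markers where these reached their share in the library, Malat1 was at least 2% of UMIs and no other class had 3 or more marker UMIs at 2 times the library's expectation. Fibroblast- or endothelial-marker-rich barcodes had 3 or more UMIs of that class at 2 times its expectation in their own library. Malat1 was again at least 2%, and no other class, cardiomyocytes aside, met that rule. Fibroblast- and endothelial-marker-rich sums were added after seeing the data. Doublets were not called. Shares were compared with two-sided exact permutation tests over 3 against 3 libraries. The members and the gene lists were chosen with earlier results of these data known. Named were the targeted genes, the 15 largest rises and 15 largest falls among called genes of at least 20 CPM without overlap, the 10 called genes of highest level, and up to 6 called members of each list (2 where none was called). Myh6, Myh7b, Gys1, Fgf12, Tnnt1 and Bckdhb were also named, and where they fall outside that rule they were chosen after their values were seen. Positions are those of GENCODE on GRCm38. In simulated counts of 14636 genes, 200 were changed, all with a mean of at least 20 UMIs per library. The whole-library fit recovered 40% of changes of log2 1 and 99% of changes of log2 2, with 7 false calls among 146. Recovery of changes in genes with fewer UMIs was not simulated. Apart from the changes, each simulated gene had the same mean share in all libraries, with a spread read from the trend over genes. Spread particular to a gene and shifts shared by many genes of a library were not simulated. The false calls therefore do not measure those of the real comparison. DESeq2 1.42.0, other factors, filters, barcode sets, a replicate block and each library left out were the alternatives. The depth per library, 2439168 to 5203348 UMIs, limits the precision of low genes. Some genes called by the same test are not reported here.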

Additional observations from a re-analysis of the deposited data

How the results depend on the processing

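Counts of called genes kept within 1.5 times under DESeq2 (1192 higher, 788 lower), RLE factors (956 and 736), the 6 P10 libraries alone (718 and 528) and a term for Xist (1255 and 856). They moved further with barcodes of at least 1000 UMIs (596 and 418), without barcodes low in Malat1 (556 higher), with shared barcodes kept (1024 lower), and in fibroblast-marker-rich (102 and 79, of 6674 genes tested) or endothelial-marker-rich barcodes (78 and 60, of 5507). Fewer genes than the 15388 of the main fit were tested in the last 2 settings. The same held at 1000 UMIs (13372) and without barcodes low in Malat1 (14116). The cause of these moves was not tested. Leaving out 1 library gave 218 to 1426 higher and 147 to 728 lower genes in whole libraries, and 219 to 664 higher and 241 to 627 lower in cardiomyocyte-marker-rich barcodes. The lowest counts came without control library 3. Pink1 changed sign in fibroblast-marker-rich barcodes, from −0.84 to 0.19 (edgeR adjusted p = 0.921). With the replicate number as a block, 822 genes were higher and 569 lower, and 727 and 758 in cardiomyocyte-marker-rich barcodes. Deviations of same-numbered libraries correlated at 0.37, −0.247 and 0.132, and others at 0.438 (control 2 with KO 3) and 0.392 (control 3 with KO 2), so the numbers were not taken to pair the libraries. Of the 144 called genes named by rule, 73 were not called without control library 3.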
